A study of Mus musculus with 12 samples.

Results

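The SLC15 genes encode transporters that move small peptides and histidine across membranes together with protons. They were followed here in RNA-seq libraries of mouse bone marrow-derived macrophages (BMDMs). The members were the expressed genes of the family, Slc15a2, Slc15a3 and Slc15a4, 3 of the 5 Slc15 genes in tables of 56941 genes. Membership was selected on counts above 0, and Slc15a2 was chosen by its known difference between genotypes, so that difference is given as a description without a test. Slc15a1 and Slc15a5 had 0 counts in all 12 libraries, and a count of 0 allows up to 3 counts, or 0.295 to 0.378 CPM (counts scaled to a common library total) by library.

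The study compared macrophages of C57Bl/6J mice that lack miR-210 (KO) with those of wild-type mice (WT). Deletion used Cre recombinase under Gata-1 control on a floxed miR-210 allele, and heterozygotes were mated to give the KO and the WT animals. Marrow monocytes were enriched by negative selection and grown for 7 days in medium conditioned by L929 cells, a source of the macrophage growth factor M-CSF. Resting cells (M0) had no IL-4, and M2 cells received IL-4, the cytokine that drives alternative activation, at 20 ng/mL for 72 hours. Each of the 4 groups, WT M0, KO M0, WT M2 and KO M2, had 3 libraries, with total counts from 7930525 to 10167695. GEO's labels name a separate batch for every group, and the effects of batch and group cannot be told apart. The labels do not say whether the libraries of a group came from separate animals or cultures, and the p-values measure the spread between these libraries.

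The cells carried macrophage genes. All 8 macrophage markers had counts, with the lysozyme gene Lyz2 the most abundant, and their summed level was 9106 to 10376 CPM in M0 and 7586 to 8320 CPM in M2. With IL-4, 4 of the 8 were called lower and 1 higher in WT, and 5 lower and 0 higher in KO (edgeR). Over all tested genes, 20.9% were called lower and 22.1% higher in WT, and 16.4% and 17.4% in KO. Retnla, an IL-4 induced gene, was listed at 0 counts in all 6 M0 libraries and reached 431 ± 42.4 CPM in WT M2 and 379 ± 105 CPM in KO M2 (mean ± SD, n = 3). Mir210, the precursor gene at chr7:140801297-140801406 on the minus strand of GRCm39, had 1, 3 and 5 counts in WT M0 and 1, 2 and 1 counts in WT M2. It had 0 counts in all 6 KO libraries, which went with the labels. A count of 0 allows up to 3 counts, however, and most WT libraries had no more than that.

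SLC15 carriers use the proton gradient as their driving force. Slc15a1 and Slc15a2 encode the cell surface peptide carriers PepT1 and PepT2, known from gut and kidney respectively. Slc15a3 and Slc15a4 encode the carriers PHT2 and PHT1 of endosomes and lysosomes, which carry histidine and small peptides and, in immune cells, can bring bacterial peptides to the NOD sensors in the cytosol. The Slc15a4 protein also holds the adaptor TASL, which activates the transcription factor IRF5 downstream of endosomal Toll-like receptors (TLRs).

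The deleted microRNA has a strand for each arm of its hairpin, shown here because a match to bases 2 to 8 of a strand, the seed, is the usual first sign of a direct target. The sequences are from RefSeq on GRCm38.p6, at chr7:141221407-141221428 for the 3p strand and chr7:141221445-141221466 for the 5p strand, both on the minus strand, with the seed in capitals.
mmu-miR-210-3p: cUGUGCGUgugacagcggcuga
mmu-miR-210-5p: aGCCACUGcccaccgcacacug

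The letters ACGCACA, which pair with the 3p seed, were looked for in the canonical coding transcript of each family gene in the GENCODE annotation of GRCm39. Slc15a2 had 0 matches over a transcript of 4065 bases, Slc15a3 had 0 over 2357 bases and Slc15a4 had 0 over 8231 bases. For comparison, 726 of the 20828 coding transcripts with a stretch after the stop codon held the letters in that stretch, or 3.49%. Absence of the letters says only that they are not in these transcripts, and other kinds of pairing were not looked for.

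The promoters of Slc15a2, the low gene that differed between genotypes, and Slc15a4, the steady gene, are shown for their contrast in base composition. Both are 300-base RefSeq windows on GRCm38.p6 across the start site, at chr16:36784913-36785212 and chr5:127617343-127617642 on the minus strand, with every C followed by G in capitals.
Slc15a2: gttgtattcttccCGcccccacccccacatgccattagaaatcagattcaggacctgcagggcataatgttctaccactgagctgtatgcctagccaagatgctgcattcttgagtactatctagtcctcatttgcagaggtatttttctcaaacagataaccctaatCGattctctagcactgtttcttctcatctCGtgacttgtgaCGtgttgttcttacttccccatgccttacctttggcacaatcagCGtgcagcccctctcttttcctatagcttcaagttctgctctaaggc
Slc15a4: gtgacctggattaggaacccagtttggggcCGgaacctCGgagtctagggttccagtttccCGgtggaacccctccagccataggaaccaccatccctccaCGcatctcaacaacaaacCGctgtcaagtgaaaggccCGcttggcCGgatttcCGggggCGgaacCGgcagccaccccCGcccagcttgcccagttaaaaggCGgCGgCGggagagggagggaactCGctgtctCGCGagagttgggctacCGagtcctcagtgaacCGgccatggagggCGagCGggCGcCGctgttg

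The Slc15a2 window held 5 CG pairs and 46.3% G and C, against 23 pairs and 64.0% for Slc15a4. Over all 32851 promoter windows of the table the median was 7 pairs and 52.7%, and the middle 50% of windows ran from 3 to 20 pairs. Neither window held the STAT inverted repeat of TTC and GAA with 4 bases between, a spacing that IL-4-activated STAT6 can bind, the E-box CACGTG or the interferon-type element, GAAA repeated with 2 bases between, on either strand. These motifs were present in 6.95%, 7.15% and 3.44% of all windows, and what is absent from a window says nothing about the factor. Slc15a3 had no window among them, so its promoter was not searched.

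Levels of different genes were compared per kilobase of summed exon. Slc15a3 was the most abundant member in each group, with 31.7 ± 1.23 CPM per kb in WT M0, 32.7 ± 5.35 in KO M0, 75.3 ± 1.43 in WT M2 and 82.1 ± 0.05 in KO M2 (mean ± SD, n = 3). Its percentile among 14743 genes was 92.3 in both M0 groups, 97.0 in WT M2 and 97.2 in KO M2. Slc15a4 was in the middle of the range, with 7.41 ± 0.75, 6.85 ± 0.30, 6.62 ± 0.25 and 6.43 ± 0.45 CPM per kb in the same order of groups.

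Slc15a2 was far lower, at 0.36 ± 0.05 CPM per kb in WT M0 and 0.43 ± 0.12 in WT M2. It was at 1.58 ± 0.29 in KO M0 and 2.0 ± 0.04 in KO M2. Its percentile was 7.43 and 7.82 in the WT groups and 26.5 and 30.5 in the KO groups. Of the summed level of the family, Slc15a2 made up 0.90% in WT M0, 3.83% in KO M0, 0.53% in WT M2 and 2.21% in KO M2. Slc15a3 made up 80.3%, 79.5%, 91.4% and 90.7% in that order, so the order of the members was the same in all 4 groups. The exon sum of Slc15a3 includes a retained intron, and the ratio of Slc15a3 to Slc15a4 in WT M0 was 4.28 by summed exons, 2.53 by longest transcripts and 5.23 by canonical coding transcripts.

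**Figure D1:**
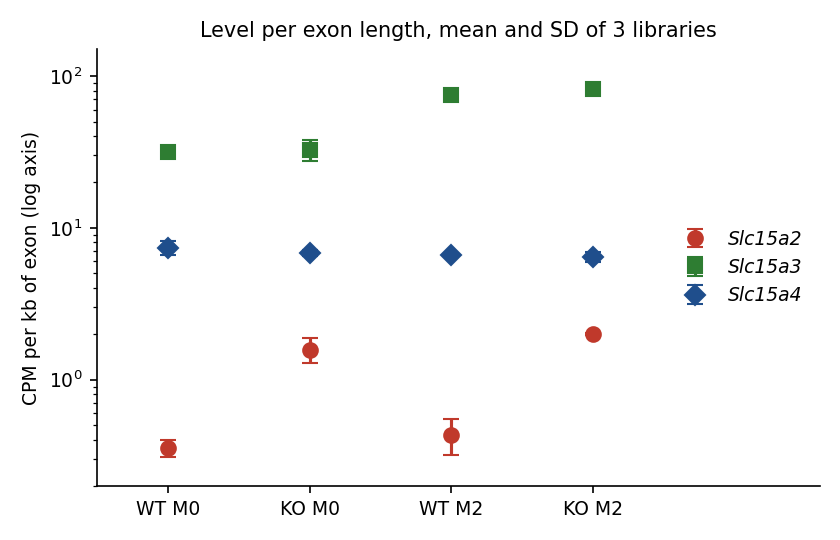
Level per kilobase of summed exon (CPM per kb, log axis) of Slc15a2, Slc15a3 and Slc15a4 in the 4 groups, with points for the mean and bars for the SD of 3 libraries. Slc15a3 lies highest, from 31.7 to 82.1 CPM per kb, and Slc15a2 lies lowest, from 0.36 to 2.0.

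Slc15a2, the PepT2 gene (ENSMUSG00000022899, chr16:36570475-36605334, minus strand of GRCm39), was higher in both KO groups than in their WT counterparts. The WT M0 libraries had 19, 24 and 30 counts and the KO M0 libraries 84, 129 and 136. In M2 the WT libraries had 19, 34 and 31 counts and the KO libraries 121, 145 and 117. The lowest KO library lay above the highest WT library in both states, by 3.07 times in CPM in M0 and 3.82 times in M2.

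The mean level went from 2.65 ± 0.35 to 11.7 ± 2.15 CPM in M0 (SD, n = 3), a log2 fold change of 2.14 (SE 0.22) or 4.40-fold. In M2 it went from 3.22 ± 0.86 to 14.9 ± 0.26 CPM, a log2 fold change of 2.21 (SE 0.17) or 4.62-fold. These changes were the 12th largest of 14089 genes tested in M0 and the 13th largest of 13980 in M2 by size of the fitted log2 fold change. As background, 0.461% of the tested genes differed between genotypes in M0 and 0.98% in M2, where a call throughout needs a BH-adjusted p below 0.05 and a change of more than 1.2-fold. Groups did not overlap in 14.4% of the genes tested in M0 and 16% in M2. Nothing is read from the place of Slc15a2 among them, since these contrasts chose it. Among the marker lists of other cell types, the summed fibroblast level was 1.02 to 1.34 CPM in WT M0 and 1.81 to 2.49 CPM in KO M0, over 6 of 6 markers with Col1a2 the most abundant, and overlapped between genotypes in M2. The summed neutrophil level was 2.48 to 5.37 CPM in WT M2 and 1.13 to 1.88 CPM in KO M2, over 6 of 7 markers with S100a8 the most abundant, and overlapped in M0. The part of either in the values of Slc15a2 was not tested.

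IL-4 gave Slc15a2 a log2 fold change of 0.28 (SE 0.25) in WT cells, where the M0 and M2 libraries overlapped, while 57% of tested genes did not (edgeR's quasi-likelihood test, BH-adjusted p = 0.39). In KO cells it was 0.34 (SE 0.15), with an interval from 0.01 to 0.67 and an adjusted p of 0.10 in edgeR, although the lowest KO M2 library was 1.1 times the highest KO M0 library. As background, groups did not overlap in 46.3% of the genes tested for IL-4 in KO cells. The difference between the genotypes' IL-4 responses was 0.06 (SE 0.30) with an interval from -0.56 to 0.69, so a genotype effect that differed between M0 and M2 by less than this could not have been detected at these counts (edgeR, adjusted p = 0.97).

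**Figure D2:**
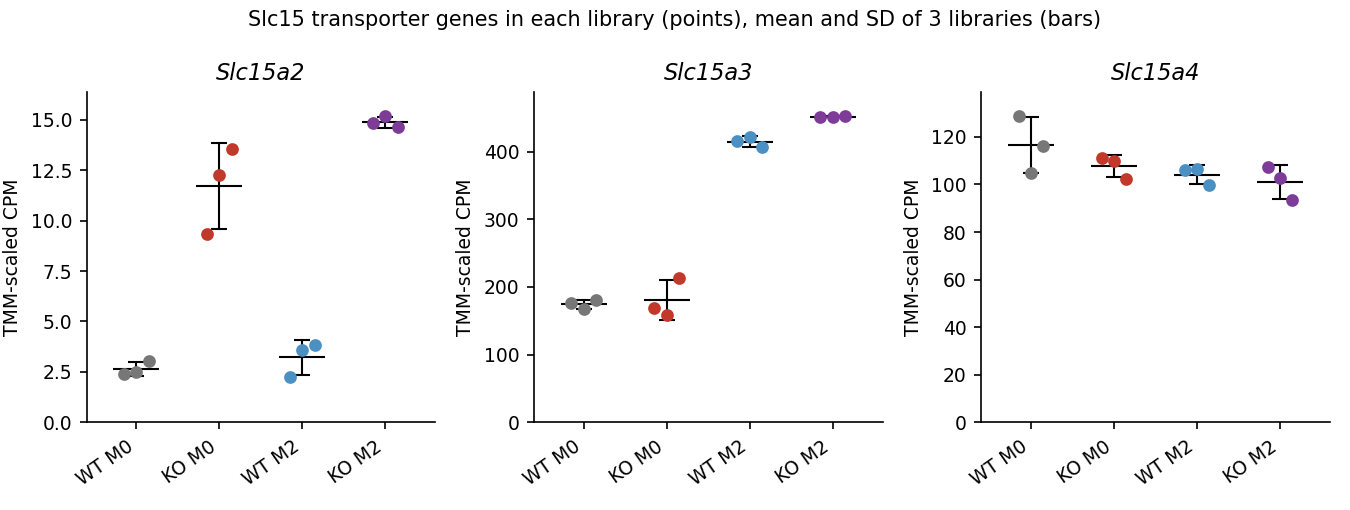
CPM of Slc15a2, Slc15a3 and Slc15a4 (linear axes from 0) in each of the 12 libraries as points, with a bar for the group mean and whiskers for the SD of 3 libraries. Slc15a2 is higher in both KO groups, Slc15a3 in both M2 groups, and the groups of Slc15a4 overlap.

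Slc15a3, the PHT2 gene (ENSMUSG00000024737, chr19:10817091-10836726, plus strand of GRCm39), rose with IL-4 in both genotypes. The WT libraries had 1386, 1618 and 1777 counts in M0 and 3528, 4001 and 3280 in M2. KO libraries had 1517, 1661 and 2145 counts in M0 and 3683, 4318 and 3608 in M2. In either genotype every M2 library was above every M0 library, by at least 2.25 times in CPM in WT and 2.11 times in KO, and 57% and 46.3% of all tested genes likewise did not overlap.

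The rise in WT was from 175 ± 6.77 to 414 ± 7.85 CPM, a log2 fold change of 1.25 (SE 0.06) or 2.38-fold with a BH-adjusted p of 2e-09 in edgeR. In KO it was from 180 ± 29.4 to 452 ± 0.29 CPM, a log2 fold change of 1.33 (SE 0.10) or 2.51-fold with an adjusted p of 5.2e-07 in edgeR. IL-4 changed much of the transcriptome, and Slc15a3 was the only member of the 3 called, in both genotypes. The share of tested genes called was 43% in WT and 33.8% in KO, and the share called higher in M2 was 22.1% and 17.4%. By size Slc15a3 was 1546th of 14266 genes in WT and 1249th of 14331 in KO.

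The genotypes' IL-4 responses of Slc15a3 differed by 0.08 (SE 0.12, interval -0.18 to 0.34) with an adjusted p of 0.90 in edgeR. No gene of 14825 was called for this difference by edgeR, while 1327 had an unadjusted p under 0.05 and the DESeq2 Wald test called 74. The summed fibroblast level was 1.81 to 2.49 CPM in KO M0 and 0.61 to 1.00 CPM in KO M2, and overlapped between M0 and M2 in WT. Markers of dendritic cells also moved with IL-4. The summed dendritic cell level over 6 of 6 markers with a count was 0.52 to 1.45 CPM in M0 and 11.2 to 19.3 CPM in M2. This level was mostly from Zbtb46 in M2 but not in M0, and Zbtb46 had 682 counts over 12 libraries. Ccr7 had 56 counts and went from 0.31 to 0.93 CPM in WT and from 0.21 to 0.64 CPM in KO, too low to be tested, and Xcr1, Clec9a, Flt3 and Siglech had 35, 16, 2 and 1 counts. The neutrophil marker S100a8 went with IL-4 from 0.80 ± 0.41 to 3.18 ± 0.61 CPM in WT. In WT it passed the filter on low counts through the M2 libraries, where it was higher, so this rise is described without a test. In KO its log2 fold change was -0.19 (SE 0.34, adjusted p = 0.71 in edgeR). S100a9, with 19 counts over 12 libraries, went the other way in WT, from 0.44 to 0.28 CPM. The summed neutrophil level overlapped between M0 and M2 in both genotypes. The part of these markers in the rise of Slc15a3 was not tested, and in bulk samples fewer cells of a type and less RNA per cell cannot be told apart.

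Between genotypes Slc15a3 did not pass the limits. In M0 the log2 fold change from WT to KO was 0.05 (SE 0.11, interval -0.19 to 0.29, adjusted p = 0.93 in edgeR), and the groups overlapped, with WT libraries at 176, 167 and 180 CPM and KO libraries at 169, 158 and 214. Within M2 it was 0.13 (SE 0.05, interval 0.02 to 0.23, unadjusted p = 0.018, BH-adjusted p = 0.31 in edgeR). The WT M2 libraries lay at 416, 422 and 406 CPM and the KO M2 libraries at 451, 452 and 452, so these groups did not overlap, as was the case for 16% of the genes tested there.

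Slc15a4, the PHT1 gene (ENSMUSG00000029416, chr5:127667297-127709961, minus strand of GRCm39), was called in none of the comparisons. The counts were 1011, 1015 and 1145 in WT M0, 998, 1155 and 1029 in KO M0, 900, 1012 and 805 in WT M2 and 877, 982 and 746 in KO M2. The 4 groups overlapped in each comparison.

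Its level was 117 ± 11.9 CPM in WT M0, 108 ± 4.68 in KO M0, 104 ± 3.88 in WT M2 and 101 ± 7.14 in KO M2. The log2 fold change from WT to KO was -0.11 (SE 0.09, interval -0.31 to 0.09) in M0 and -0.04 (SE 0.07, interval -0.18 to 0.11) in M2, with adjusted p of 0.75 and 0.91 in edgeR. With IL-4 it was -0.15 (SE 0.08, interval -0.32 to 0.01) in WT and -0.09 (SE 0.08, interval -0.27 to 0.09) in KO, with adjusted p of 0.12 and 0.43 in edgeR. The responses to IL-4 differed between genotypes by 0.07 (SE 0.11, interval -0.17 to 0.31, adjusted p = 0.90). A comparison between genotypes and a comparison with IL-4 share the libraries of a group, so their values are not independent.

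**Figure D3:**
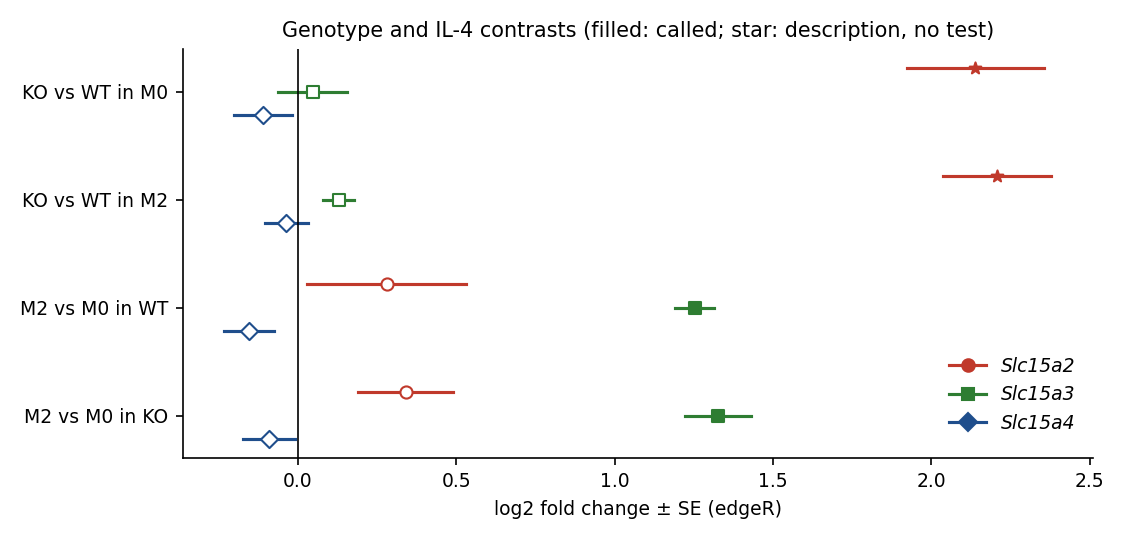
Log2 fold changes (horizontal axis) of the 3 members in the genotype and IL-4 contrasts, with bars for the SE of the edgeR fit to 6 libraries. Filled symbols passed an adjusted p of 0.05 and 1.2-fold, stars are the genotype contrasts that chose Slc15a2 (2.14 and 2.21, no test), and Slc15a3 is at 1.25 and 1.33 with IL-4.

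Genes that overlap or neighbour the members were looked at within 100 kb of each start site. Slc15a2 had 11 such genes, of which 4 had enough counts to be tested. Gm56626 is a long non-coding RNA annotated on the same strand inside Slc15a2 (chr16:36585467-36590580). Its log2 fold change from WT to KO was 1.58 (SE 0.31) in M2 and 1.27 (SE 0.53) in M0. On leaving out each library in turn, the M2 value ran from 1.37 to 1.74. Since it lies within Slc15a2 on the same strand, unspliced Slc15a2 reads and reads of Gm56626 cannot be told apart by position. The genotype contrasts chose Slc15a2, so these values of Gm56626 are described without a test.

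The protein-coding neighbours Iqcb1, a gene of cilia, and Golgb1, which encodes the Golgi protein giantin, had log2 fold changes between genotypes of -0.05 and -0.12 in M0 and of 0.18 and 0.01 in M2, none called. Gm49599, which shares its start with Golgb1, had -0.06 and -0.02. Iqcb1 fell with IL-4 by 0.69 on the log2 scale in WT and 0.48 in KO (edgeR, adjusted p = 0.0017 and 0.036), and in KO the call ended on leaving out 4 of the 6 libraries in turn (adjusted p from 0.024 to 0.13).

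Slc15a3 overlaps Tmem132a at its end on the opposite strand. Tmem132a, a membrane protein gene, rose with IL-4 by 0.86 (SE 0.11) in WT and 0.76 (SE 0.11) in KO on the log2 scale, with adjusted p of 2.2e-05 and 0.00011 in edgeR. Counting was strand-specific, and the carry-over of reads between the pair was not tested. Slc15a3 had 32522 counts over the 12 libraries and Tmem132a had 2225. Further along, Tmem109 and the splicing factor gene Prpf19 had log2 fold changes with IL-4 of -0.13 and 0.25 in WT, neither called, and of -0.27 and 0.10 in KO, where Tmem109 was called lower (adjusted p = 0.026 in edgeR). Near Slc15a4 only the overlapping Gm43474, on the opposite strand, had enough counts, and it was called in no comparison.

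The members did not move alike over the 12 libraries. As a description over libraries that share groups, Pearson's r of log2 CPM was 0.20 between Slc15a2 and Slc15a3, -0.44 between Slc15a2 and Slc15a4, and -0.59 between Slc15a3 and Slc15a4. The 5 genes most like Slc15a2 among 14824 were mt-Nd3 (r = 0.98), Ide (0.97), Pira2 (0.97), H4c17 (0.96) and mt-Nd4l (0.95). These genes were picked for their likeness to Slc15a2, which the genotype contrasts chose, so their differences between genotypes are described without a test. All but Ide had few counts in WT and passed the filter on low counts through the KO libraries. For mt-Nd4l the counts were too few to be tested between genotypes.

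Ide encodes insulin-degrading enzyme, a peptidase, and was at 62.7 ± 6.28 CPM in WT M0, 113 ± 2.28 in KO M0, 63.4 ± 2.28 in WT M2 and 115 ± 3.99 in KO M2. Pira2, an activating immunoglobulin-like receptor gene, had 1 to 2 counts in WT M0 libraries and 84, 93 and 111 in KO M0. H4c17, a histone gene, had 4 to 9 counts in WT M0 and 373 to 510 in KO M0. Pira2 and H4c17 belong to multigene families and mt-Nd3 has nuclear copies, and their values are uncertain where reads could be shared with such copies.

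Nearest to Slc15a3 were Nfil3, Sardh, Hebp2, Ubl3 and Rbsn, all with r = 0.99. Nfil3 encodes a transcription factor and went from 13.5 ± 0.77 to 70.5 ± 5.57 CPM with IL-4 in WT, and from 13 ± 1.9 to 78.4 ± 2.71 in KO. Rbsn encodes rabenosyn, a protein of early endosomes, and went from 86.9 ± 1.30 to 129 ± 6.07 CPM in WT, and reached 136 ± 1.61 in KO M2. Sardh, a mitochondrial sarcosine dehydrogenase gene, had 0 to 1 counts in M0 libraries and 39 to 63 in M2 libraries.

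Slc15a4 was nearest to Zfp276 (r = 0.97), Dcaf11 (0.93), Dyrk3 (0.90), Klra3 (0.90) and Exoc7 (0.90). Zfp276, a zinc finger gene, had 45.2 ± 5.93 CPM in WT M0 and 37.8 ± 4.49 in KO M2 and was called in no comparison, nor were Dcaf11 and Exoc7. Klra3, a lectin-like receptor gene of a multigene family, and the kinase gene Dyrk3 were low genes called lower with IL-4 in WT, from 4.6 ± 1.9 to 1.47 ± 0.46 CPM and from 3.89 ± 1.34 to 1.80 ± 0.32 CPM, and in no other comparison. Since Slc15a4 varied little, its likeness rests on small differences between libraries.

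**Figure D4:**
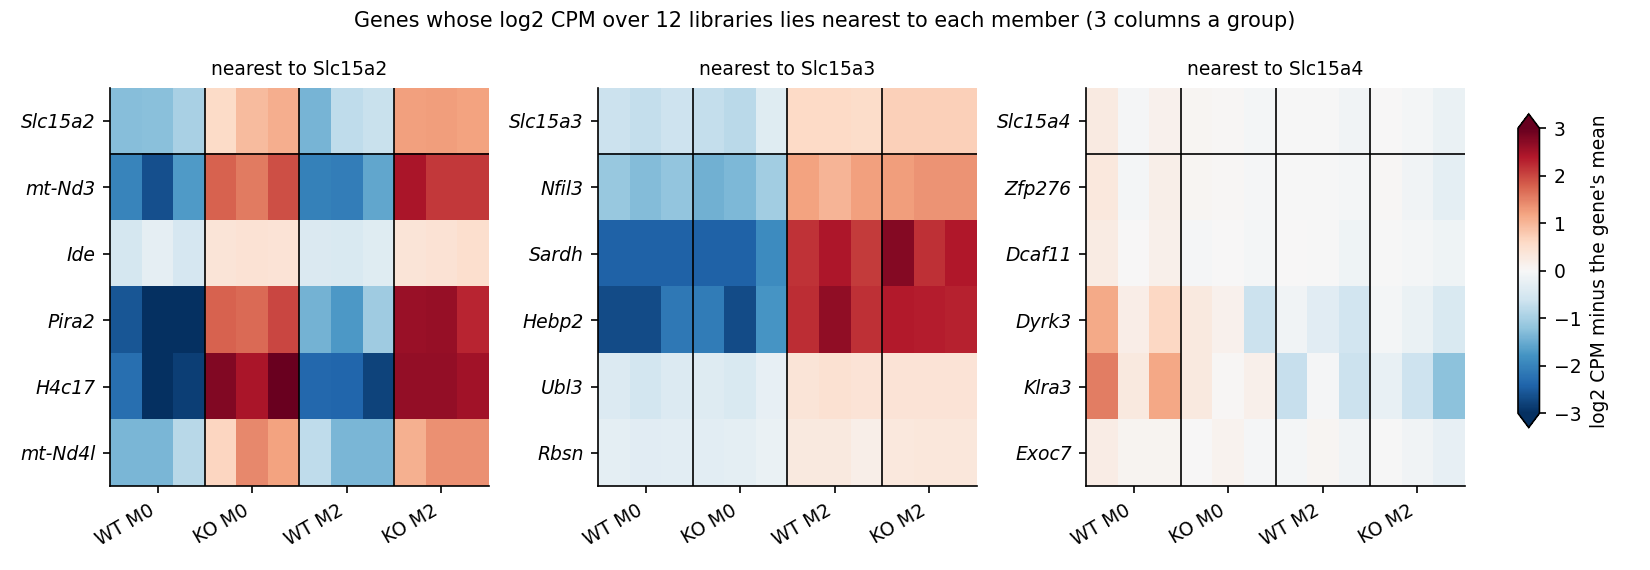
Log2 CPM minus the mean of the gene over 12 libraries (colour, red above and blue below the mean, limited to 3 either way) for each member in the top row and the 5 genes nearest to it below, with 3 columns per group. The genes near Slc15a2 differ by genotype, those near Slc15a3 by IL-4, and those near Slc15a4 vary little apart from Dyrk3 and Klra3, with r of 0.98, 0.99 and 0.97 for the nearest gene.

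The partners of the endosomal carriers were described through lists taken from textbook knowledge. The endosomal TLR and IRF5 list, the setting of Slc15a4, had 17 genes, all tested. With IL-4, 10 were called lower and 2 higher in WT, and 7 lower and 2 higher in KO, against 20.9% and 16.4% of all tested genes called lower in the same comparisons. The median log2 fold change of the list was -0.31 in WT and -0.24 in KO, beside -0.0012 and -0.0078 over all genes tested.

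Tasl, the adaptor of the Slc15a4 protein, fell in WT from 95.5 ± 9.38 to 30.6 ± 0.86 CPM (log2 fold change -1.63, SE 0.08, adjusted p = 3.4e-09 in edgeR). In KO it fell from 78.3 ± 5.94 to 33.2 ± 0.90 CPM (log2 fold change -1.24, SE 0.09, adjusted p = 2.5e-07). Slc15a4 itself had log2 fold changes of -0.15 and -0.09 in these comparisons. Irf5, the transcription factor at the end of this route, had 0.19 (SE 0.08, adjusted p = 0.081) and 0.11 (SE 0.10, adjusted p = 0.45) in edgeR, so it was not called.

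Of the receptors, the DNA sensor Tlr9 fell most, from 32.3 ± 2.68 to 1.58 ± 0.28 CPM in WT and from 21.6 ± 0.94 to 2.53 ± 1.21 CPM in KO. The RNA sensor Tlr7 fell by 1.42 on the log2 scale in WT and 1.06 in KO, and the interferon factor Irf7 fell by 3.08 and 3.07. Tlr8 rose by 0.53 in WT and 0.94 in KO, and Hsp90b1, a chaperone of TLRs, rose by 0.49 and 0.61 (edgeR, adjusted p = 0.0004 or less for each change named here).

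Between genotypes Tlr9 was the gene of the list called by the 6-library edgeR fits, in M0, where it was lower in KO (log2 fold change -0.58, SE 0.10, adjusted p = 0.034 in edgeR, with 0.241% of all tested genes called lower). The call was lost on leaving out 4 of the 6 libraries in turn, with adjusted p from 0.0099 to 0.24. Over the alternatives 0 to 3 genes of the list were called lower in M0. The others, named for these calls after their values were seen, were the RNA sensors Tlr3 and Tlr8, at -0.39 and -0.30 in a fit of all 12 libraries (edgeR, adjusted p = 0.0093 and 0.028), and both were also called with the library number as a block and with DESeq2. In M2 Tlr7 was called higher in KO under 1 alternative, without KO M2 library 3 (0.28, adjusted p = 0.011 in edgeR). In M2 Tlr9 had 0.67 (SE 0.34, adjusted p = 0.52). Tasl had -0.28 (SE 0.10, adjusted p = 0.30) in M0 and 0.12 (SE 0.08, adjusted p = 0.65) in M2.

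Sensing of bacterial peptides by NOD1 and NOD2 was followed with 18 genes. IL-4 lowered 5 and raised 3 in WT, and the same numbers in KO. Of all tested genes 20.9% were called lower and 22.1% higher in WT and 16.4% and 17.4% in KO, and in WT the 8 of 18 called were close to the 43% over all genes. The median log2 fold change of the list was -0.12 and -0.07. Both sensors fell, Nod1 by 0.96 in WT and 0.69 in KO and Nod2 by 0.97 and 1.01 on the log2 scale, whereas Ripk2, the kinase that acts after them, rose by 1.76 and 1.55 (edgeR, adjusted p = 8.9e-05 or less for each). Ripk2 went from 27.4 ± 1.90 to 92.2 ± 6.95 CPM in WT. Tnfaip3, a brake on this route, rose by 0.81 and 0.44, and in KO leaving out each library in turn gave it 0.33 to 0.60 and ended the call in 4 of 6 cases (adjusted p from 0.0033 to 0.11 in edgeR). Otulin, a deubiquitinase, rose by 0.39 and 0.40. Tab2 fell by 0.53 and 0.37, and Rnf31, a ubiquitin ligase subunit, by 0.50 and 0.56.

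Rnf31 was also the only gene of the list called between genotypes, lower in KO M2 than in WT M2 by 0.41 on the log2 scale (SE 0.08, adjusted p = 0.025 in edgeR). In M2 0.572% of all tested genes were called lower. Leaving out each library in turn gave adjusted p from 0.036 to 0.14 and ended the call in 4 of 6 cases. Nod1, Nod2 and Ripk2 were not called between genotypes in either state.

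Other carriers of lysosomes and endosomes counted 16 tested genes of 18. IL-4 raised 6 and lowered 4 in WT and raised 7 and lowered 2 in KO, beside 22.1% higher and 20.9% lower over all tested genes in WT and 17.4% and 16.4% in KO. The list had a median log2 fold change of -0.05 in WT and 0.23 in KO. Slc36a4, an amino acid carrier, rose by 0.66 and 0.59, and Slc11a1, the metal ion carrier NRAMP1, fell by 1.17 and 1.28 on the log2 scale. The lysosomal lipid carrier Spns1 rose by 0.69 and 0.45. Slc46a3, a lysosomal carrier, had 0.00074 (SE 0.11) in WT and rose by 0.34 (SE 0.11, adjusted p = 0.030 in edgeR) in KO, while the difference between these responses was 0.34 (SE 0.16) with an adjusted p of 0.56. The KO call of Slc46a3 was lost on leaving out 4 of the 6 libraries in turn (adjusted p from 0.0058 to 0.14). Mfsd1, a lysosomal dipeptide carrier, fell by 0.28 in WT, and in KO its value of -0.25 was inside the 1.2-fold limit. None of the 16 was called between genotypes.

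Peptidases that make or split small peptides counted 19 tested genes of 20. IL-4 raised 7 and lowered 4 in WT and raised 8 and lowered 4 in KO, again beside 22.1% higher and 20.9% lower over all tested genes in WT and 17.4% and 16.4% in KO, so that in WT the share lower was near that of all genes. The median log2 fold change was 0.08 in WT and 0.16 in KO. Ctsc, the dipeptide-releasing cathepsin C, fell from 851 ± 27.5 to 212 ± 14.3 CPM in WT and from 823 ± 45.3 to 230 ± 19.7 CPM in KO. The endopeptidase gene Ctsl rose by 1.37 in WT and 1.47 in KO on the log2 scale, and Anpep, a surface aminopeptidase, by 0.43 and 0.92. No peptidase was called between genotypes.

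Histidine and histamine genes were mostly at low counts. Of 12, 4 were tested for genotype in M0 and 5 in the comparisons of M2. Hdc, which makes histamine from histidine, had 8 counts over all 12 libraries. Carns1, the carnosine synthase gene, went with IL-4 from 0.70 ± 0.16 to 3.22 ± 0.44 CPM in WT and from 0.80 ± 0.37 to 3.12 ± 0.49 CPM in KO. It passed the filter on low counts only through the M2 libraries, where it was higher, so this rise is described without a test. The others tested were not called. Counting Carns1, 1 in 5 tested was called higher, near the 22.1% and 17.4% of all tested genes, and nothing is read from it. The median log2 fold change was 0.08 in WT and 0.0094 in KO.

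The vacuolar proton pump, which builds the gradient that the endosomal and lysosomal carriers of Slc15a3 and Slc15a4 use, had 18 tested genes. IL-4 raised 8 and lowered 1 in WT and raised 7 and lowered 1 in KO, where all tested genes gave 22.1% higher and 20.9% lower in WT and 17.4% and 16.4% in KO. Its median log2 fold change was 0.25 in WT and 0.15 in KO. Atp6v0d2 rose from 151 ± 21.4 to 1253 ± 47.1 CPM in WT and from 133 ± 9.28 to 1359 ± 51.6 CPM in KO, and Atp6v0a1 by 2.24 and 2.45 on the log2 scale. The gene called lower was Atp6ap1 in WT, at -0.31, and Atp6v1g1 in KO, at -0.44. Tcirg1, a membrane subunit, was lower in KO M2 than in WT M2 by 0.28 (SE 0.05, adjusted p = 0.016 in edgeR), and leaving out each library in turn ended this call in 5 of 6 cases. No other gene of the pump was called between genotypes.

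In the Ragulator, Rag and mTORC1 list, the lysosomal nutrient-sensing machinery to which Slc15a4 has been tied, 15 of 16 genes were tested. IL-4 raised 2 and lowered 3 in each genotype, and these were Tfeb and Mitf, regulators of lysosomal genes, and Rragc, Flcn and Lamtor5. Over all tested genes 43% were called in WT and 33.8% in KO, so the share in the list was no higher, and its median log2 fold change was 0.09 in WT and -0.0025 in KO. Lamtor5 lost its call on leaving out 5 of the 6 libraries in turn in either genotype, with adjusted p up to 0.13 in WT and 0.11 in KO, and Flcn lost it in 2 of 6 cases in WT. Tfeb rose by 1.13 in WT and 0.93 in KO, Mitf by 0.99 and 1.04, and Rragc fell by 0.93 and 0.73 on the log2 scale. None was called between genotypes.

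**Figure D5:**
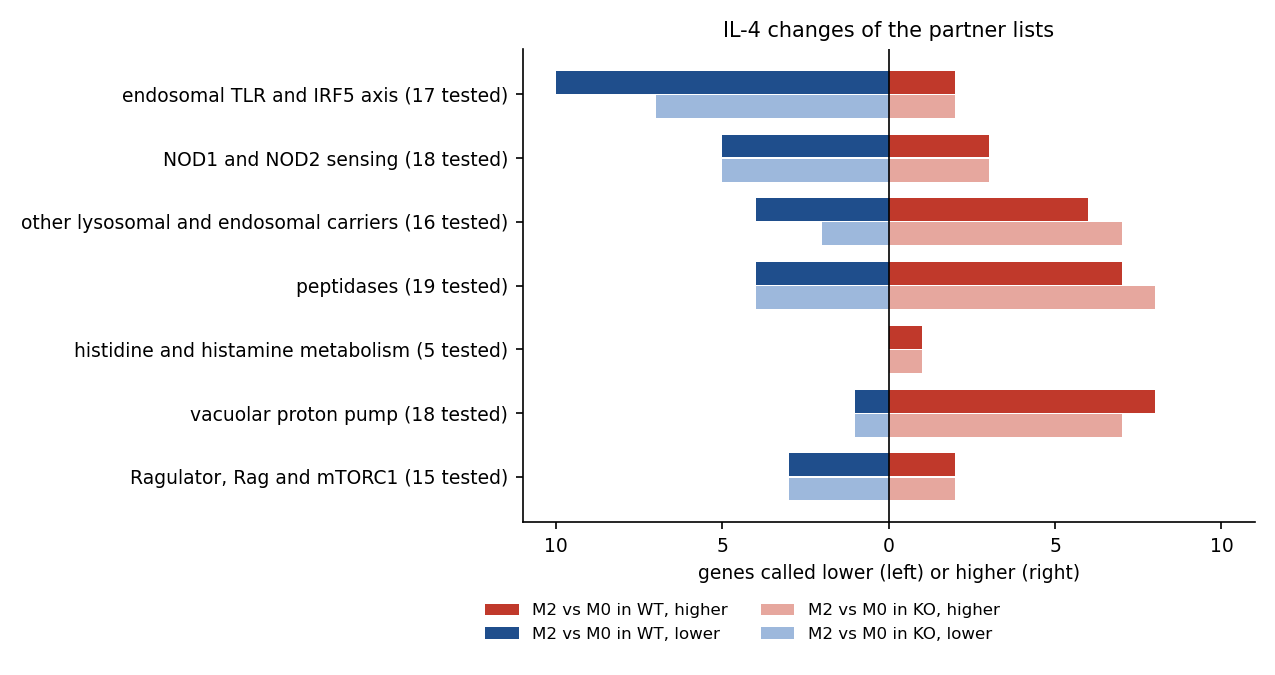
Number of genes called lower (bars to the left) or higher (bars to the right) with IL-4 in each list of partner genes, in WT (dark) and KO (light). The endosomal TLR and IRF5 list has 10 and 7 genes lower and 2 higher, and the proton pump list has 8 and 7 higher and 1 lower, beside 22.1% and 17.4% of all tested genes higher and 20.9% and 16.4% lower in WT and KO.

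For the state of the cells as a whole, Mrc1, the mannose receptor gene that rises in IL-4 activation, rose with IL-4 by 0.62 in WT and 0.89 in KO on the log2 scale.

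Apart from the dendritic cell markers given above, the summed levels of markers of other cell types reached at most 2.49 CPM for fibroblasts, 5.37 CPM for neutrophils with Ly6g at 0, 4.95 CPM for erythroid cells, 0.25 CPM for B cells with Ms4a1 at 0, 0.25 CPM for T and NK cells with Cd3e, Nkg7 and Ncr1 at 0, and 0.21 CPM for mast cells and basophils with Fcer1a at 0.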

How the data were processed

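RNA-seq libraries of 12 macrophage samples were assigned to 4 groups of 3 by the group names of the table columns, and the library numbers were not tied to samples. The authors trimmed reads (Trimmomatic), removed duplicates (Picard), aligned to GRCm39 (STAR) and made strand-specific counts per gene with featureCounts, and the deposited count tables hold these counts without normalization. The deposited normalized values are a signal, counts divided by DESeq2 size factors for each pair of groups, used only as an alternative for levels. No column of per-sample values was left unused (0).

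Of 56941 gene identifiers, 56323 matched GENCODE vM39. Counts were tested in R 4.3.3 with edgeR 4.0.16 (TMM, filterByExpr, quasi-likelihood test on the 6 libraries of a pair, or all 12 for the interaction), with Benjamini-Hochberg (BH) adjustment over all genes tested and calls at 0.05 for the adjusted p and more than 1.2-fold (a log2 fold change of 0.263 in size, not applied to the interaction). The SE is the log2 fold change divided by the square root of F, and intervals (95%) use the degrees of freedom of the fit. CPM are TMM-scaled over the 12 libraries, and likeness used log2 CPM with a prior count of 2. The scripts were tested on simulated data. DESeq2 1.42.0 and other settings were alternatives. Total counts of 7930525 to 10167695 set the precision, and intervals and floors cover counting and replicate spread only.

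The members and gene lists were chosen with earlier results of these data known. Named were the family genes, Mir210, Retnla and Mrc1, the 5 genes most like each member, tested neighbours within 100 kb, and of each list all called members if 6 or fewer, otherwise the 3 with the smallest adjusted p in each direction, of which the text gives a part, plus Tasl, Irf5, Nod1, Nod2, Ripk2, Hdc, Slc46a3 and Mfsd1. Marker genes of other cell types and genes called under an alternative alone were named after their values were seen. Some items that the rule names are not reported here. Protein sequences were not used here.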

Additional observations from a re-analysis of the deposited data

How the results depend on the processing

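Of the members' tested values, each stayed called or uncalled under every alternative run. Each also kept its direction, except 7 that were not called and changed sign on leaving out a library. Slc15a2 between genotypes, which has no test, kept its direction. Slc15a4 with IL-4 in WT had adjusted p from 0.011 to 0.42 in edgeR. The lowest was without WT M0 library 2, where the log2 fold change of -0.22 was inside the 1.2-fold limit. On leaving out each library in turn, and on the log2 scale, Slc15a3 between genotypes in M0 ran from -0.10 to 0.14 and Slc15a4 in M2 from -0.079 to 0.016, below 0 without KO M0 library 3 and above 0 without KO M2 library 3. The difference between the IL-4 responses ran from -0.14 to 0.19 for Slc15a2 (-0.055 without WT M0 library 3, -0.071 without KO M0 library 1, -0.14 without WT M2 library 1), from -0.015 to 0.21 for Slc15a3 and from -0.013 to 0.13 for Slc15a4. Over all alternatives the log2 fold change of Slc15a2 between genotypes ran from 2.02 to 2.28 in M0 and from 2.01 to 2.34 in M2, and that of Slc15a3 with IL-4 from 1.22 to 1.27 in WT and from 1.23 to 1.45 in KO. Of 1596 values of called list genes and neighbours, Tmem109 not among them, 83 lost the call and 0 changed sign. In the list counts, the pump genes called higher in WT ran from 7 to 11 and those called lower from 1 to 2, the peptidases called lower in KO from 1 to 4 (4 as reported), the other carriers called lower in KO from 1 to 4 (2) and the Ragulator genes called lower in WT from 1 to 3 (3). Between genotypes, the TLR genes called lower in M0 ran from 0 to 3 (1), and Rnf31 of the NOD list and Anpep of the peptidases were called lower in M0 with no filter (-0.36 and -0.32 on the log2 scale), Rnf31 also in the fit of 12 libraries. For the interaction, Tlr8, Tlr9, Ctns and Anpep were called with no filter and Tlr8 with DESeq2.

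The number of genes called between genotypes was less stable. In M0, against 65, it was 532 with no filter on low counts, 248 with all 12 libraries in 1 fit, 210 with DESeq2, 27 at a log2 fold change over 1, and 20 to 302 on leaving out each library, with 302 without WT M0 library 2 and 105 without KO M0 library 2. In M2, against 137, it was 360 with no filter, 60 in the fit of 12, 40 over 1, and 53 to 215 on leaving out each library, with 215 without KO M2 library 3. With IL-4, 2042 genes passed 1 in WT and 1800 in KO, against 6137 and 4842. For the interaction, against 0, there were 341 genes with no filter, 74 with DESeq2 and 0 to 77 on leaving out each library. The causes were not tested.

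Libraries with the same number did not deviate together in every pair of groups (correlations from -0.27 to 0.34). With 3 libraries in a group, these values cannot tell whether libraries with the same number are paired. With the library number as a replicate block, 284 genes were called in M0 and 289 in M2, the TLR genes called lower in M0 went from 1 to 3, and no other count of all genes or of a list moved by over 1.5 times.

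Per length of the longest transcript, levels in WT M0, KO M0, WT M2 and KO M2 were 0.65, 2.88, 0.79 and 3.66 CPM per kb for Slc15a2, 35.9, 37.0, 85.1 and 92.8 for Slc15a3, and 14.2, 13.1, 12.6 and 12.3 for Slc15a4. With the deposited normalized values Slc15a3 in KO M2 was at 81.2. The ratio of Slc15a3 to Slc15a4 in WT M2 was 11.4 by summed exons, 6.73 by longest transcripts and 13.9 by canonical coding transcripts, an alternative chosen after seeing the data, as were those of the list genes.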
